A study of Mus musculus with 32 samples.

Results

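The Cyp2d genes encode cytochrome P450 enzymes of subfamily 2D, and 8 of them were followed here in mouse liver by RNA-seq: Cyp2d9, Cyp2d10, Cyp2d11, Cyp2d12, Cyp2d13, Cyp2d22, Cyp2d26 and Cyp2d40. They were taken by symbol from the 41585 gene rows of the count tables, and each had exactly those rows in the female and in the male table. The 32 libraries fell into 8 groups of 4: ND-fed WT, CDAHFD-fed WT, ND-fed Cyp2b-null and CDAHFD-fed Cyp2b-null females, and the same groups of males. All mice were C57BL/6 by the labels, C57Bl/6J by the study's methods, and 10 weeks old when the diets began, and the diets lasted 8 weeks. The ND was a normal chow with 6.2% fat. The CDAHFD, a choline-deficient, L-amino acid-defined diet with 62% fat and 0.1% methionine, produces fatty liver and steatohepatitis. Cyp2b-null mice lack Cyp2b9, Cyp2b10 and Cyp2b13 in every tissue, from CRISPR/Cas9 deletion. WT mice were purchased while the Cyp2b-null mice were the study's own line, so genotype and the source of the mice cannot be told apart. The study had 9 mice in a group and took RNA from some of them. The labels do not say that each library was a separate mouse, so p-values measure only the spread between these samples.

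Cytochrome P450 enzymes of subfamily 2D are membrane proteins of the endoplasmic reticulum that oxidise steroids, fatty acid derivatives and many basic drugs. Humans carry a single working gene of the subfamily, the drug-metabolising CYP2D enzyme of the liver, whereas mice carry a tandem cluster of them. Cyp2d9 is known as a male-specific testosterone hydroxylase of mouse liver, one of the genes that follow the pulsed growth hormone secretion of males through the transcription factor STAT5B.

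The 8 genes lie in 1 cluster on chromosome 15 of mouse build GRCm38.p6, which spans 423.9 kb from base 82370527 to base 82794452 and holds 18 Cyp2d entries in RefSeq, of which 8 are protein-coding and 10 pseudogenes. In order along the chromosome, Cyp2d22 is at 82370527-82380260, Cyp2d11 at 82389154-82394022, Cyp2d10 at 82402845-82407253, Cyp2d9 at 82452377-82456827, Cyp2d12 at 82555043-82559413, Cyp2d13 at 82636750-82642045, Cyp2d40 at 82759833-82764122 and Cyp2d26 at 82790107-82794452. Cyp2d9 and Cyp2d12 are on the plus strand, and Cyp2d22, Cyp2d11, Cyp2d10, Cyp2d40 and Cyp2d26 on the minus strand. RefSeq lists Cyp2d13 as a transcribed pseudogene, so its counts are of a transcript and not of an enzyme.

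RefSeq promoter sequence was at hand for 5 of the 8, namely Cyp2d9, Cyp2d10, Cyp2d11, Cyp2d40 and Cyp2d26. The bases just before the start that the promoter table uses are shown for them. That start is the outer end of the gene given above for Cyp2d9, Cyp2d11 and Cyp2d40, but for Cyp2d10 and Cyp2d26 it lies inside the gene, so that their sequences overlap it in part and in whole. They are shown because the male-biased Cyp2d9 shares most of its proximal promoter with Cyp2d10 and Cyp2d11, whose sex difference was far smaller. Capitals mark the letters TATAA and CAAAGNNCA on the strand shown, and each sequence is written from 5′ to 3′.
Cyp2d9, chr15:82452252-82452376, plus strand: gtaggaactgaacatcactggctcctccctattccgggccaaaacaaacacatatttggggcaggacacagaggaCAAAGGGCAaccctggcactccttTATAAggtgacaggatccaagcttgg
Cyp2d10, chr15:82407195-82407319, minus strand: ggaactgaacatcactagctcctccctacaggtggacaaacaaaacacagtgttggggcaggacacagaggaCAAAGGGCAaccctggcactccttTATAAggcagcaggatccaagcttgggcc
Cyp2d11, chr15:82394023-82394147, minus strand: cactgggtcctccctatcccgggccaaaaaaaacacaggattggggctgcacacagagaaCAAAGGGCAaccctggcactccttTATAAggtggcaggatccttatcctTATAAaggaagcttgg
Cyp2d40, chr15:82764123-82764247, minus strand: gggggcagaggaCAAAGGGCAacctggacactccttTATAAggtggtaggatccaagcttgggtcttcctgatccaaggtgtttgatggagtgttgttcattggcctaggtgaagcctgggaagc
Cyp2d26, chr15:82794246-82794370, minus strand: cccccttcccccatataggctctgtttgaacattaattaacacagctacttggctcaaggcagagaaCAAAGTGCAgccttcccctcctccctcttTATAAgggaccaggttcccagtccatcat

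Over the 250 bases before those table starts, the promoter of Cyp2d9 was 82.8% identical to that of Cyp2d10 and 82.3% identical to that of Cyp2d11, while Cyp2d10 and Cyp2d11 were 76.7% identical to each other. The promoters of Cyp2d40 and Cyp2d26 were 49.4% and 54% identical to that of Cyp2d9. TATAA, the core of a TATA box, was found in 5 of the 5 promoters on either strand, against 22.8% of 32851 mouse promoters of the same length. CAAAGNNCA, written in the form in which nuclear receptors such as HNF4A are known to bind direct repeats, was also in 5 of the 5, against 5.49% of all promoters, but these letters were chosen after the sequences had been seen. TTCNNNGAA, the letters that STAT5 proteins are known to bind, was in 0 of the 5, against 7.02% of all promoters, and TTGCNNAA, a form of the C/EBP motif, in 0 of the 5 against 9.56%. The HNF1 palindrome was in 0 of the 5 and in 0.00913% of all promoters. These are matches of letters within a window on both strands and say nothing about sites elsewhere.

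The transcripts are also similar, which bears on the counts. The protein-coding transcripts of Cyp2d9 and Cyp2d10 were 91.8% identical, those of Cyp2d9 and Cyp2d11 93.4%, and those of Cyp2d10 and Cyp2d11 94.4%, whereas Cyp2d22, Cyp2d26 and Cyp2d40 were 78.7% to 84.6% identical to each other and 79.5% to 82.4% identical to Cyp2d9 and Cyp2d10. Of all stretches of 150 bases, the read length, 6.4% in Cyp2d10, 5.62% in Cyp2d11, 1.54% in Cyp2d9, 0.598% in Cyp2d12 and 0% in Cyp2d22, Cyp2d26 and Cyp2d40 occurred exactly in a transcript of another gene. At 50 bases these shares rose to 40.5%, 37.2%, 29%, 17.9%, 6.14%, 10.5% and 24.1% in the same order. How reads that map to several genes were counted is not given in the sources used here, so the counts of Cyp2d9, Cyp2d10, Cyp2d11 and Cyp2d12 are less certain as to gene than those of Cyp2d22 and Cyp2d26. A GENCODE antisense transcript, Gm49431 at 82621092-82660905 on the plus strand, overlaps Cyp2d13, and whether the counting used strand is not given in the sources used here.

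Levels are given as CPM, the usual measure of counts relative to the library total, with the totals scaled by TMM over the 32 libraries. The library totals ran from 2906411 to 10166959 counts, so that the 3 counts taken as a floor corresponded to 0.25 to 1.15 CPM. In the Cyp2b-null libraries the deleted Cyp2b10 was at 0 to 2.30 CPM, against 64.8 to 77.7 CPM in ND-fed WT females, and Cyp2b9 was at 0.357 to 2.32 CPM. WT males overlapped these ranges in Cyp2b9 on the ND, at 0 to 3.28 CPM, and in Cyp2b10 on the CDAHFD, at 0 to 1.24 CPM, so those values do not check the labels. Differences are log2 values with their standard error (SE), first group minus second, from edgeR's quasi-likelihood test, and calls were made at an adjusted p under 0.05 after Benjamini-Hochberg adjustment over all genes tested. These were 13226 genes in females, 13460 in males and 14020 in both tables together. All 8 Cyp2d genes passed the filter on low counts in the 3 fits, Cyp2d12 in females only through its CDAHFD-fed libraries. The hepatocyte marker list had 9 of its 10 genes in the tables and summed to 62260 to 199200 CPM, and Umod and Slc12a1 of the kidney were at 0 in most groups.

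Cyp2d9 was the gene of the cluster that differed most between groups. In ND-fed WT males it was at 2043, 1550, 1778 and 1367 CPM, and in ND-fed WT females at 26.4, 29.5, 36.0 and 30.7 CPM. The level in ND-fed WT males was 55.1-fold that of females, with a log2 difference of 5.79 (SE 0.353, adjusted p = 1.57e-14). The ND-fed Cyp2b-null libraries showed the same split, with 1460, 1794, 1682 and 1558 CPM in males and 42.6, 61.1, 46.85 and 38.8 CPM in females.

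The CDAHFD lowered Cyp2d9 in males. In CDAHFD-fed WT males it was at 554.9, 258.8, 262.7 and 241.6 CPM, and in CDAHFD-fed Cyp2b-null males at 269.4, 291.6, 233.5 and 349.6 CPM. None of these libraries reached the lowest ND-fed male library, and none came down to the highest female library at 71.35 CPM. The fall was 5.11-fold in WT males (log2 difference -2.35, SE 0.223, adjusted p = 8.46e-08) and 5.67-fold in Cyp2b-null males (log2 difference -2.50, SE 0.224, adjusted p = 2.75e-08).

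In females Cyp2d9 did not pass the test for diet. It was at 21.2, 47.45, 71.35 and 21.6 CPM in CDAHFD-fed WT females and at 48.55, 29.2, 65.3 and 24.4 CPM in CDAHFD-fed Cyp2b-null females, spreads that covered those of the ND-fed WT females. The log2 difference was 0.43 (SE 0.331, adjusted p = 0.392) in WT and -0.17 (SE 0.322, adjusted p = 0.724) in Cyp2b-null females. The diet effect of males minus that of females, tested as an interaction in 1 fit of both tables, called 1 of the 8 genes in WT mice, against 0.970% of all genes, and 2 in Cyp2b-null mice, against 3.40%. For Cyp2d9 it was -2.75 (SE 0.424, adjusted p = 0.000201) in WT and -2.32 (SE 0.417, adjusted p = 0.00127) in Cyp2b-null mice. The other gene called in Cyp2b-null mice was Cyp2d12, which was nearly absent in ND-fed females, so that call is not given as support.

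A sex difference in Cyp2d9 remained on the CDAHFD. It was 8.17-fold in WT mice, a log2 difference of 3.03 (SE 0.311, adjusted p = 3.81e-08) against 5.79 on the ND. Males and females were deposited in separate tables, so sex and any difference in how the tables were made cannot be told apart.

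**Figure D1:**
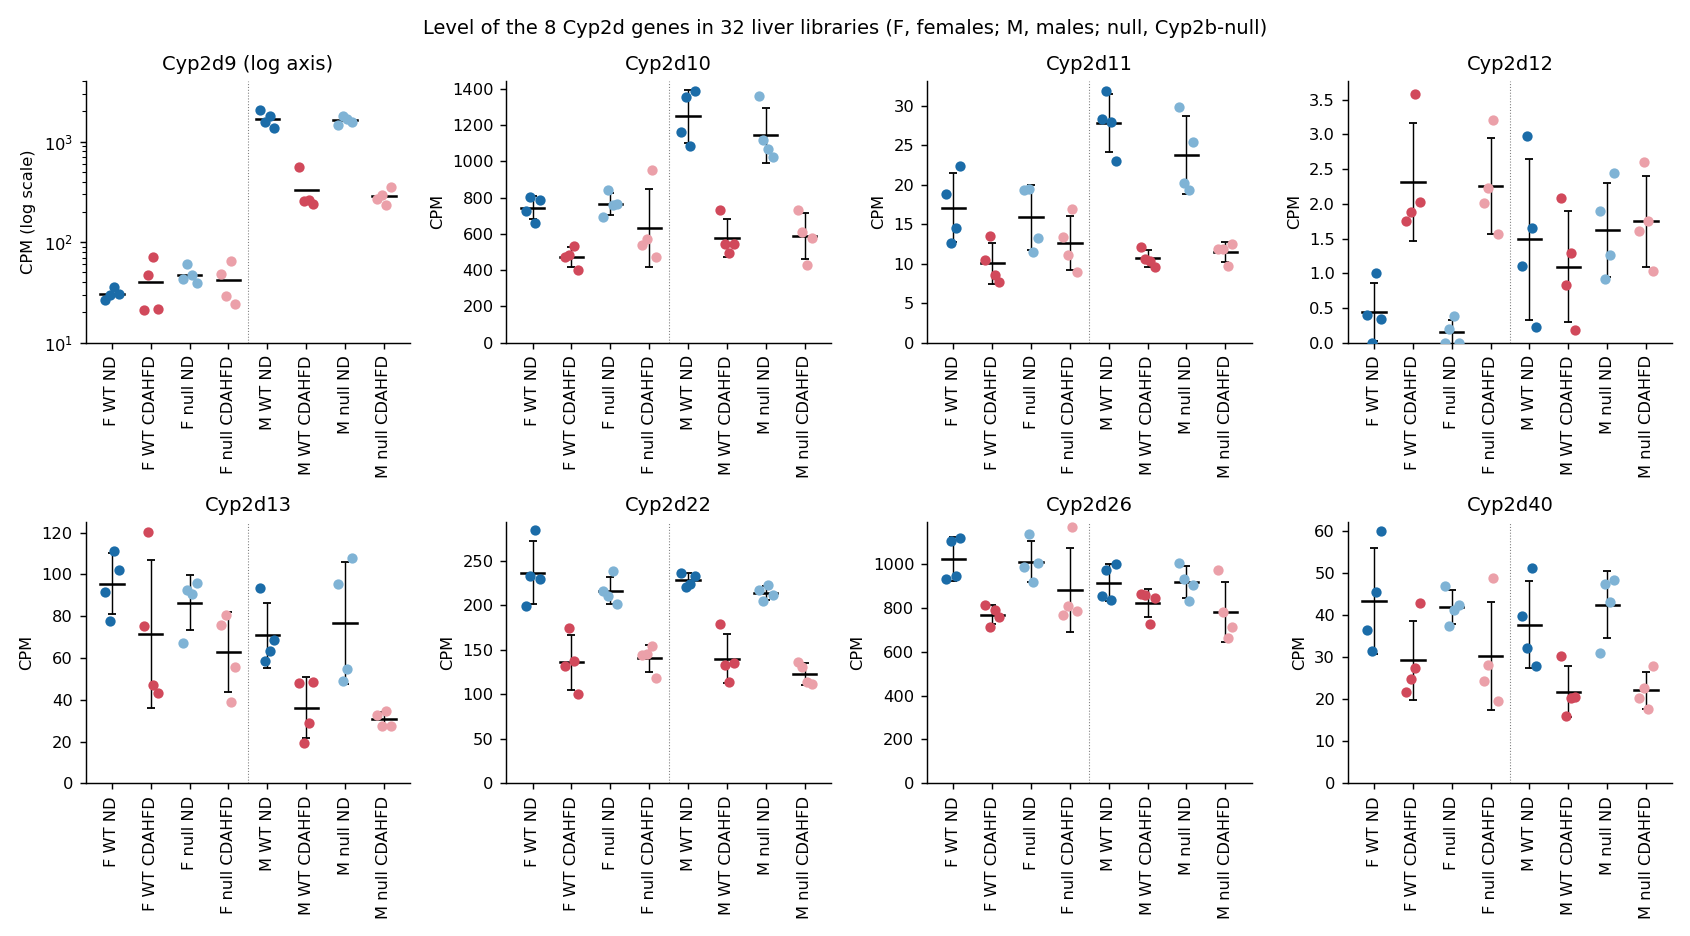
Level in CPM (vertical axis) of the 8 Cyp2d genes in each of the 32 libraries, with the 8 groups on the horizontal axis (F, females; M, males; null, Cyp2b-null), where points are libraries, horizontal lines are means of 4 and bars are SD, except that the Cyp2d9 panel has a log axis and no SD bars. Cyp2d9 sits at 1367 to 2043 CPM in ND-fed males and at 233.5 to 554.9 CPM in CDAHFD-fed males, against 21.2 to 71.35 CPM in females.

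Cyp2d10, an abundant liver enzyme of the family, also had more counts in ND-fed males than in females, but by less. It was at 1164, 1353, 1087 and 1387 CPM in ND-fed WT males and at 724.9, 804.5, 661.9 and 787.5 CPM in ND-fed WT females, ranges that did not overlap. The male level was 1.68-fold that of females (log2 difference 0.74, SE 0.171, adjusted p = 0.00244). On the CDAHFD it was at 733.5, 543.5, 493.2 and 542.4 CPM in WT males and at 472, 484.7, 534.5 and 401.1 CPM in WT females, which overlapped, and the sex difference was 0.29 on the log2 scale (SE 0.17, adjusted p = 0.285).

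The CDAHFD lowered Cyp2d10 in males of both genotypes and in WT females. The fall was 2.15-fold in WT males (log2 difference -1.11, SE 0.162, adjusted p = 1.89e-05) and 1.94-fold in Cyp2b-null males (-0.96, SE 0.161, adjusted p = 7.51e-05), where the CDAHFD-fed libraries held 732.9, 612.1, 428 and 579.2 CPM. WT females fell 1.55-fold (-0.63, SE 0.169, adjusted p = 0.00877).

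Cyp2b-null females were at 690.1, 842.8, 761.5 and 764.2 CPM of Cyp2d10 on the ND and at 536.5, 571.9, 949.4 and 472.1 CPM on the CDAHFD. The difference was -0.25 (SE 0.168, adjusted p = 0.269), and the third CDAHFD-fed library lay above every ND-fed one.

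The counts of Cyp2d11 followed the pattern of Cyp2d10 at a much lower level. Their transcripts were 94.4% identical, and how far reads of Cyp2d10 entered the counts of Cyp2d11 was not tested. In ND-fed WT males Cyp2d11 was at 28.3, 31.9, 28.0 and 23.0 CPM, and in ND-fed WT females at 18.9, 12.6, 14.5 and 22.4 CPM. These ranges nearly met, and the log2 sex difference was 0.67 (SE 0.199, adjusted p = 0.018). Without ND-fed WT female replicate 2, female replicate 3 or male replicate 2 it was not called (adjusted p = 0.0634, 0.0659 and 0.0662).

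CDAHFD-fed WT males had 12.1, 10.6, 10.4 and 9.59 CPM of Cyp2d11, a 2.6-fold fall (log2 difference -1.38, SE 0.163, adjusted p = 1.35e-06), and CDAHFD-fed Cyp2b-null males had 11.9, 11.9, 9.66 and 12.5 CPM, a 2.1-fold fall (-1.07, SE 0.16, adjusted p = 2.09e-05). WT females fell to 10.5, 13.5, 8.57 and 7.65 CPM (-0.79, SE 0.24, adjusted p = 0.02), overlapping the ND-fed libraries. That call was lost without ND-fed WT female replicate 1 or 4 (adjusted p = 0.0531 and 0.0969) and without CDAHFD-fed WT female replicate 3 or 4 (0.0556 and 0.0795). In Cyp2b-null females the difference was -0.33 (SE 0.235, adjusted p = 0.296).

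Cyp2d22, often set beside the human CYP2D enzyme as a counterpart, had no detectable sex difference and fell on the CDAHFD in each of the 4 comparisons. ND-fed WT females had 199.2, 232.6, 284.8 and 229.9 CPM and ND-fed WT males 236.5, 220.4, 224.2 and 232.9 CPM, with a log2 sex difference of -0.05 (SE 0.137, adjusted p = 0.84, 95% interval -0.318 to 0.22). On the CDAHFD, WT females were at 131.7, 174.7, 137.3 and 99.97 CPM and WT males at 178.6, 133.2, 114 and 135.1 CPM, all below every ND-fed WT library. The fall was 1.71-fold in WT females (-0.78, SE 0.153, adjusted p = 0.000714), 1.51-fold in Cyp2b-null females (-0.60, SE 0.153, adjusted p = 0.00537), 1.63-fold in WT males (-0.70, SE 0.121, adjusted p = 0.000122) and 1.73-fold in Cyp2b-null males (-0.79, SE 0.121, adjusted p = 2.56e-05).

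Of the 8, Cyp2d26 had the most counts in females and changed little. It was at 930.6, 1106, 946.8 and 1117 CPM in ND-fed WT females and at 813, 714.4, 788.5 and 759.9 CPM in CDAHFD-fed WT females, ranges that did not overlap. That difference was -0.39 (SE 0.137, adjusted p = 0.0415), and it was called in 2 of the 8 fits that left out 1 library. The adjusted p was 0.0953 and 0.107 without ND-fed WT female replicate 2 or 4, and 0.056, 0.104, 0.0644 and 0.0797 without CDAHFD-fed WT female replicate 1, 2, 3 or 4.

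In males, Cyp2d26 was at 856.1, 974.2, 834.6 and 998.2 CPM on the ND and 861.3, 859.8, 728.8 and 845.1 CPM on the CDAHFD in WT, which overlapped. The log2 difference was -0.15 (SE 0.128, adjusted p = 0.396, 95% interval -0.401 to 0.101) in WT males and -0.23 (SE 0.128, adjusted p = 0.172) in Cyp2b-null males. Without CDAHFD-fed Cyp2b-null male replicate 1 the last value was -0.35 (adjusted p = 0.0357).

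Cyp2d40 and the pseudogene Cyp2d13 fell in males on the CDAHFD. Cyp2d40 was at 39.7, 32.1, 51.3 and 27.8 CPM in ND-fed and 30.34, 16.03, 20.23 and 20.41 CPM in CDAHFD-fed WT males, with 1 CDAHFD-fed library inside the ND range (log2 difference -0.80, SE 0.209, adjusted p = 0.00528). Cyp2b-null males fell from a mean of 42.5 to 22.1 CPM without overlap (-0.94, SE 0.207, adjusted p = 0.00106).

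Cyp2d13 fell from 93.4, 58.6, 63.1 and 68.5 to 48.0, 19.4, 28.6 and 48.6 CPM in WT males (-0.97, SE 0.26, adjusted p = 0.00652), ranges that did not overlap. In Cyp2b-null males it fell from a mean of 76.8 to 30.55 CPM (-1.33, SE 0.26, adjusted p = 0.000375).

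In females neither Cyp2d13 nor Cyp2d40 passed the test for diet with the filter on low counts. The log2 differences were -0.40 (SE 0.261, adjusted p = 0.293) and -0.54 (SE 0.25, adjusted p = 0.128) in WT, and -0.44 (SE 0.261, adjusted p = 0.214) and -0.45 (SE 0.249, adjusted p = 0.18) in Cyp2b-null females. A single library stood behind 2 of these: without CDAHFD-fed WT female replicate 2, at 120.2 CPM, Cyp2d13 differed by -0.78 (adjusted p = 0.0222), and without CDAHFD-fed WT female replicate 4, at 43.0 CPM, Cyp2d40 differed by -0.80 (adjusted p = 0.0317). With no filter on low counts, Cyp2d40 was called in WT (-0.58, adjusted p = 0.0114) and Cyp2b-null females (-0.49, adjusted p = 0.0325), and Cyp2d13 in Cyp2b-null females (-0.50, adjusted p = 0.0186).

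On the CDAHFD, Cyp2d13 was lower in WT males than in WT females (log2 difference -0.98, SE 0.284, adjusted p = 0.0244), though 75.5, 120.2, 46.8 and 43.3 CPM in females overlapped the males. The call was lost without female replicate 1 or 2 (adjusted p = 0.0527 and 0.193) or male replicate 2 or 3 (0.118 and 0.0791).

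Cyp2d12 had more counts in CDAHFD-fed than in ND-fed females, where it was nearly absent. The 4 ND-fed WT female libraries held 7 counts of it in all and the 4 CDAHFD-fed ones 47, and in Cyp2b-null females the totals were 2 and 53. In CPM these were 0.398, 0, 1.01 and 0.345 against 1.75, 1.89, 3.59 and 2.03 in WT, and 0, 0.198, 0.384 and 0 against 2.01, 2.22, 3.21 and 1.57 in Cyp2b-null females. No CDAHFD-fed library overlapped an ND-fed one in either genotype. Of all genes, 13.9% in WT and 15.4% in Cyp2b-null females had CDAHFD-fed libraries that stood apart above the ND-fed ones.

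The ratio of the summed counts of Cyp2d12, adjusted for library totals, was 5.45 (95% interval 2.45 to 14.3) in WT and 18.6 (4.89 to 157) in Cyp2b-null females, intervals that cover counting error only. Cyp2d12 passed the filter on low counts in females only through the CDAHFD-fed libraries, where it is high. Its calls for diet in females, the separation of its groups and these ratios are therefore not given as support. A direct test of whether the difference itself differed between WT and Cyp2b-null females did not pass (1.59, SE 1.04, adjusted p = 0.774).

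In males Cyp2d12 was at 0.178 to 2.98 CPM on either diet, and the differences were -0.47 (SE 0.581, adjusted p = 0.574) in WT and 0.13 (SE 0.53, adjusted p = 0.869) in Cyp2b-null mice. The interaction of diet and sex was -2.85 (SE 0.862, adjusted p = 0.123) in WT mice and was called in Cyp2b-null mice (-3.87, SE 1, adjusted p = 0.0254). In Cyp2b-null mice it was not called without ND-fed female replicate 1 or 4 (adjusted p = 0.0598 and 0.0811), CDAHFD-fed female replicate 3 (0.0524), ND-fed male replicate 4 (0.0541) or CDAHFD-fed male replicate 3 (0.0504). In WT mice it was called without CDAHFD-fed male replicate 1 (adjusted p = 0.0441). On the ND, the sex difference of 1.79 (SE 0.686, adjusted p = 0.0651) was called without male replicate 4 (2.10, adjusted p = 0.0289).

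**Figure D2:**
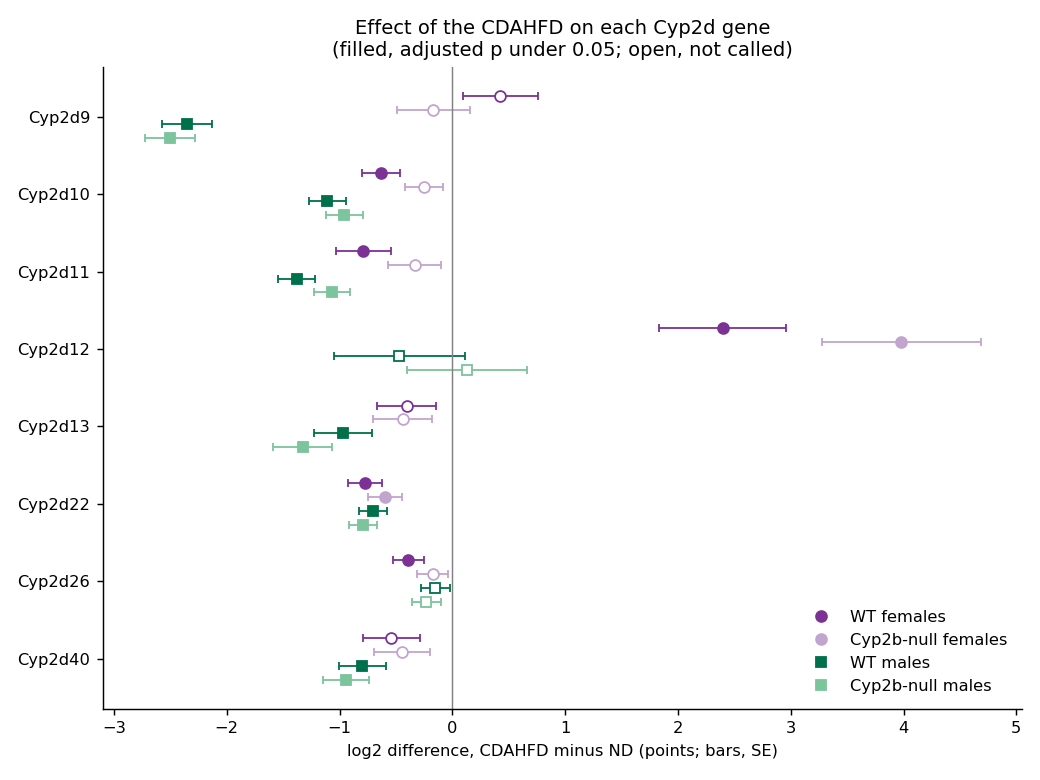
Log2 difference of CDAHFD minus ND (horizontal axis) for each of the 8 Cyp2d genes (vertical axis) in the 4 combinations of genotype and sex, with bars for SE, filled points for genes called and open points for genes not called. Cyp2d9 lies at -2.35 and -2.50 in males and at 0.43 and -0.17, not called, in females. Cyp2d22 lies at -0.60 to -0.79 in all 4, and Cyp2d12, with at most 3 counts in an ND-fed female library, at 2.40 and 3.98 in females, fitted values that depend on the prior count.

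Counted over the cluster, 1 of the 8 genes was called higher and 4 lower on the CDAHFD in WT females, where 24.1% of all genes tested were called, 13.9% higher and 10.2% lower, and 1 higher and 1 lower in Cyp2b-null females, where 30.8% were called, 16.9% higher and 13.9% lower. The 1 higher in both was Cyp2d12, which passed the filter only through the CDAHFD-fed libraries and supports nothing here. The diet lowered 6 of 8 in WT males, against 33.0% of all genes called, of which the lower ones made up 15.0% of all genes tested, and the same number, 6 of 8, in Cyp2b-null males, against 37.4% of all genes called, 17.1% being lower. Cyp2d9, Cyp2d10, Cyp2d11, Cyp2d13, Cyp2d22 and Cyp2d40 were the 6 in both. The median difference of all genes tested was -0.00 to 0.03 on the log2 scale in females and -0.02 to -0.01 in males.

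Scaling by library totals alone, in place of TMM, moved that median up by 0.319 and 0.254 in WT and Cyp2b-null females and by 0.394 and 0.373 in WT and Cyp2b-null males, and the share of calls that were higher went from 57.6% to 88.8% in WT females and from 54.6% to 89.8% in WT males. Under it, 2 of the 8 were called in WT females, where Cyp2d10 (adjusted p = 0.11), Cyp2d11 (0.139) and Cyp2d26 (0.709) were lost, and 4 in WT males, where Cyp2d13 (0.0891) and Cyp2d40 (0.0941) were lost. Cyp2d22 was lost in Cyp2b-null females (0.0697). Relative to the median of all genes, Cyp2d9 differed by -2.37 in WT males and Cyp2d10 by -1.10, Cyp2d22 by -0.70 and Cyp2d26 by -0.13. Taking off the median centres the values again much as TMM does, so they do not check the scaling.

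The library CDAHFD-fed Cyp2b-null female replicate 3 was the highest of its group in 7 of the 8 Cyp2d genes and the lowest in Cyp2d13. Without it, 5 genes were called in Cyp2b-null females in place of 2, among them Cyp2d10 (log2 difference -0.50, adjusted p = 0.00472), Cyp2d26 (-0.33, adjusted p = 0.0346) and Cyp2d40 (-0.77, adjusted p = 0.0146). The study's heat maps did not show this library, and no reason is given in the sources used here.

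**Figure D3:**
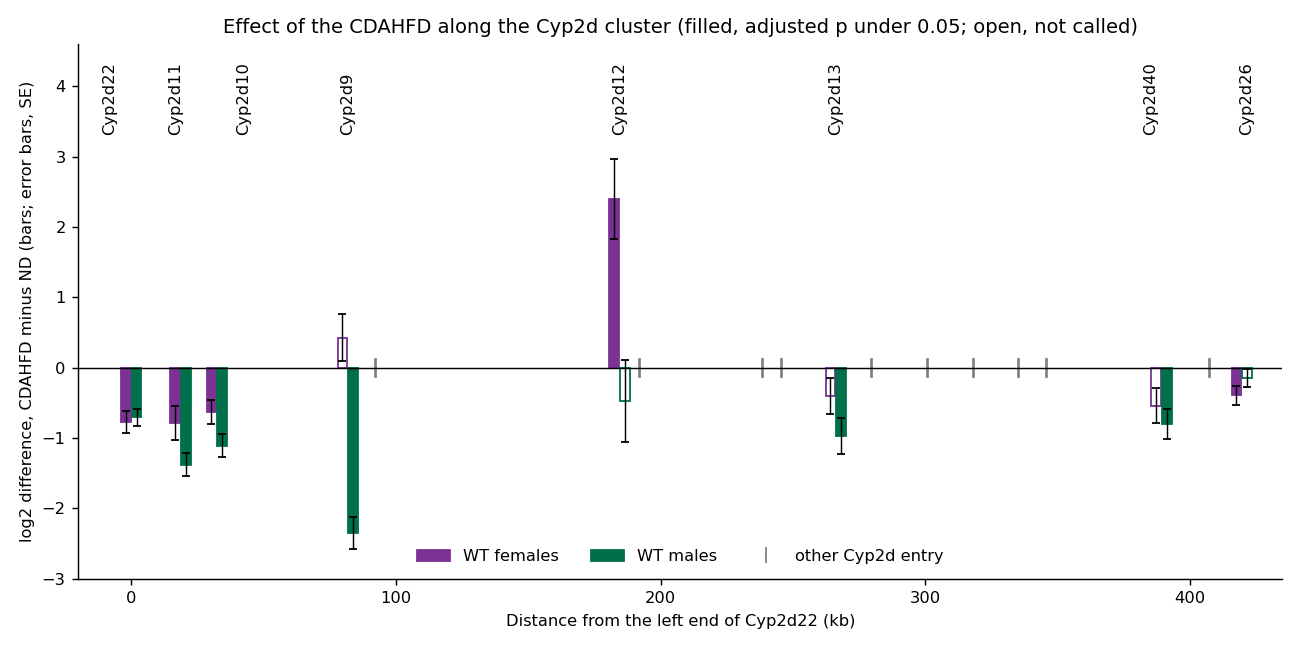
Log2 difference of CDAHFD minus ND (vertical axis, bars with SE) in WT females and WT males for the 8 Cyp2d genes, placed by their distance in kb from the left end of Cyp2d22 (horizontal axis), with grey ticks for other Cyp2d entries. The bars of Cyp2d22, Cyp2d11 and Cyp2d10 are all called lower in both sexes, while Cyp2d9 is called in males and not in females.

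Some of the genes that border the cluster were called in WT mice, in either direction. Of the 5 nearest tested genes on each side, 1 was called higher and 1 lower in WT females, with a median of 0.04. Of all genes, 13.9% and 10.2% were called higher and lower there. In WT males 2 were called higher and 2 lower, with a median of 0.02, where 33.0% of all genes were called, 15.0% being lower. Ndufa6, a subunit of respiratory complex I and the neighbour next to Cyp2d22, fell by 0.67 in WT females and by 1.05 in WT males on the log2 scale, and Nfam1, an immune receptor gene, rose by 1.0 and 2.28.

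Genotype called none of the 8 genes on either diet in either sex. In ND-fed females their log2 differences of Cyp2b-null minus WT ran from -1.65, for Cyp2d12 at 2 against 7 counts, to 0.63, with 0 of 8 called by edgeR or by DESeq2 and 0 under an unadjusted p of 0.05, and 0.0756% of all genes were called. In CDAHFD-fed females they ran from -0.18 to 0.42, with 0 called by either tool, 1 under an unadjusted p of 0.05, Cyp2d10 at 0.42 (SE 0.169, adjusted p = 0.826), and 0.0227% of all genes called. Males ran from -0.22 to 0.15 on the ND and from -0.24 to 0.70 on the CDAHFD, with 0 called by either tool, 0 under an unadjusted p of 0.05, and 0.0371% and 0.0297% of all genes called.

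In ND-fed females, Cyp2d9 had groups that stood apart by genotype. The Cyp2b-null libraries, at 38.8 to 61.1 CPM, did not overlap the WT libraries at 26.4 to 36.0 CPM, a separation with the Cyp2b-null libraries higher that 1.83% of all genes showed, but the difference of 0.63 (SE 0.332) did not pass (adjusted p = 0.879). That adjusted p ran from 0.0418, with no filter on low counts, to 0.952 over the alternatives and from 0.768 to 1 with a library left out.

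The 95% intervals of the genotype effect on Cyp2d10, Cyp2d22 and Cyp2d26 in ND-fed males were -0.438 to 0.187, -0.329 to 0.141 and -0.246 to 0.255 on the log2 scale. Interactions of diet and genotype were called for 0 of the 8 genes in females and in males, with 0% and 0.00743% of all genes called and 0 of the 8 under an unadjusted p of 0.05.

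The sum over the 8 genes showed what the CDAHFD did to the family as a whole. It was 4215 CPM ± 177.8 (SD, n = 4) in ND-fed WT males and 1941 ± 331.1 (SD, n = 4) in CDAHFD-fed WT males, and 2194 ± 153 (SD, n = 4) and 1531 ± 105.9 (SD, n = 4) in WT females. Without Cyp2d9 the ND-fed sums were 2530 CPM in WT males and 2163 CPM in WT females. Cyp2d9 made up 39.9% of the family's counts in ND-fed WT males and 1.4% in ND-fed WT females, where Cyp2d26 made up 46.7% and Cyp2d10 33.95%.

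**Figure D4:**
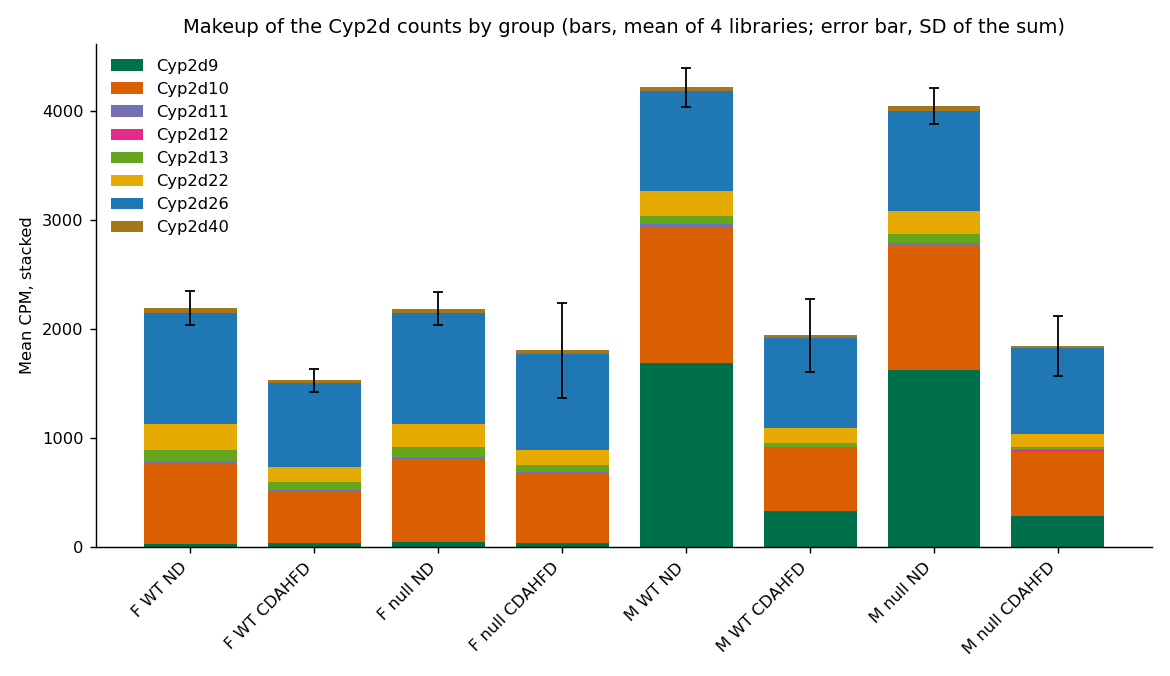
Mean CPM of the 8 Cyp2d genes, stacked (vertical axis), in the 8 groups (horizontal axis; F, females; M, males; null, Cyp2b-null), with error bars for the SD of the sum over 4 libraries. The sum is 4215 CPM in ND-fed WT males and 1941 CPM in CDAHFD-fed WT males, close to the 2194 CPM of ND-fed WT females.

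Compared between genes, levels need the transcript length, and 7 of the 8 could be divided by their merged exon length (Cyp2d13 has no length here). In ND-fed WT males the order was Cyp2d10 at 757 CPM per kb, Cyp2d9 at 634, Cyp2d26 at 511, Cyp2d22 at 58.45, Cyp2d40 at 20.9, Cyp2d11 at 17.5 and Cyp2d12 at 0.383. In ND-fed WT females it was Cyp2d26 at 572, Cyp2d10 at 451.9, Cyp2d22 at 60.5, Cyp2d40 at 24.0, Cyp2d9 at 11.5, Cyp2d11 at 10.75 and Cyp2d12 at 0.113. With its longest coding transcript in place of the merged exons, Cyp2d9 was at 984 CPM per kb in ND-fed WT males and stood first.

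Among other Cyp2d rows, Cyp2d37-ps was at 9.11 to 23.0 CPM as group means. It was at 15.6 CPM in ND-fed and 9.93 CPM in CDAHFD-fed WT males (log2 difference -0.66, SE 0.349, adjusted p = 0.159) and fell from 17.0 to 9.11 CPM in Cyp2b-null males (-0.89, SE 0.341, adjusted p = 0.0442). Cyp2d41-ps was at 0 to 3.04 CPM in single libraries, and Cyp2d34 and Cyp2d67-ps were at or near 0.

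Cyp2d9 was next set beside other genes of known sex bias in mouse liver. The male-biased list, genes such as Elovl3, a fatty acid elongase, and Cyp7b1, an oxysterol hydroxylase, had 11 of 12 tested. Of these, 11 of 11 were called higher in ND-fed WT males than in females, with a median log2 difference of 4.30. The list was chosen with earlier results of these data known. Its counts by sex and by diet are therefore a description and not given as support. Over the Cyp2d genes the count was 3 of 8 higher on the ND and 1 higher and 1 lower on the CDAHFD, against 17.8% and 11.0% of all genes called. Of all genes tested 8.35% were higher in males on the ND, and 5.91% were higher and 5.12% lower on the CDAHFD. On the CDAHFD 8 of the 11 male-biased genes were still higher in males, with a median of 1.99. Their interaction of diet and sex was called for 4 of 11 in WT and 7 of 11 in Cyp2b-null mice. Of all genes, 0.970% and 3.40% were called.

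In WT males the diet lowered 8 of the 11, with a median of -1.81, among them Elovl3 at -4.94, Hsd3b5 at -5.23, Cyp4a12a at -2.45 and Cyp7b1 at -1.90 on the log2 scale, and in Cyp2b-null males 9 of the 11, with a median of -2.35. Of all genes tested, 15.0% were called lower in WT and 17.1% in Cyp2b-null males. In females 8 of the 12 were tested, and 2 were called higher and 2 lower in each genotype. The shares of all genes were 13.9% higher and 10.2% lower in WT, and 16.9% and 13.9% in Cyp2b-null females. Values in WT females ran from -1.71 to 4.72 on the log2 scale, with a median of 0.09. Selenbp2 and Mup20, a major urinary protein, rose in WT females by 2.21 and 4.72, while Cyp2d9 was not called there.

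**Figure D5:**
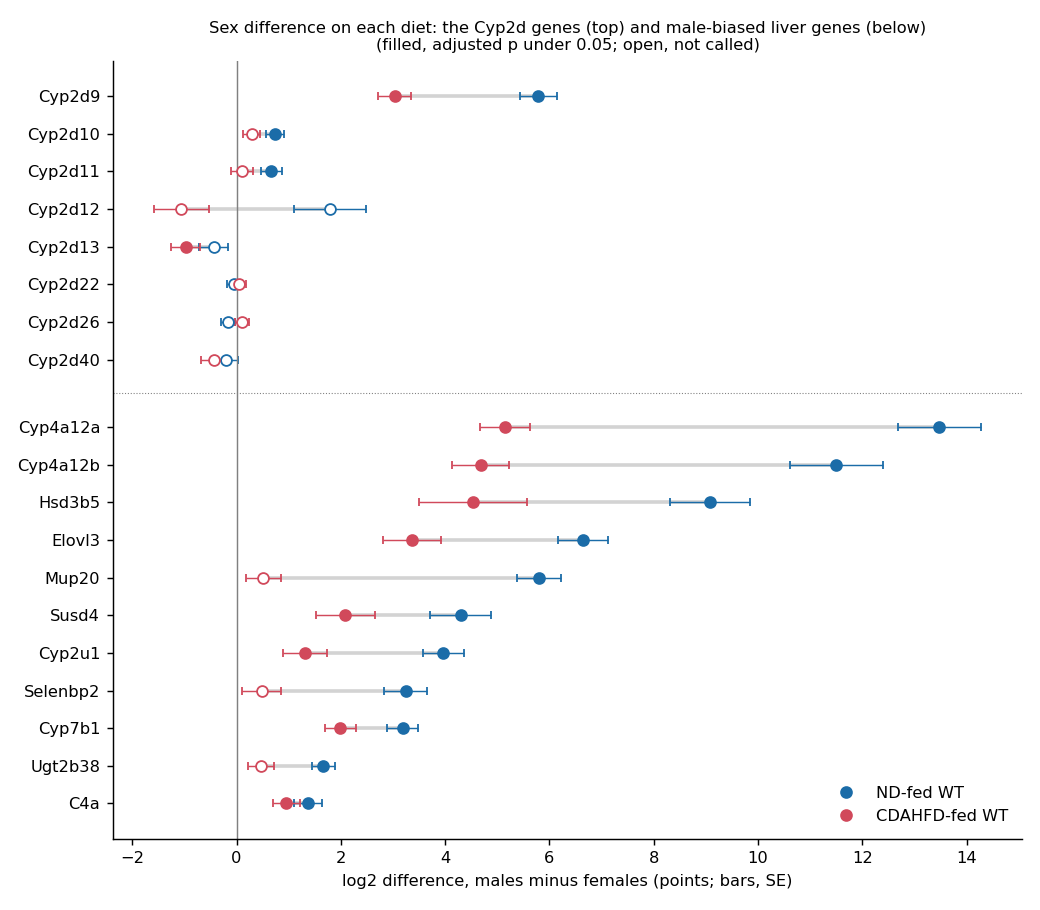
Log2 difference of males minus females (horizontal axis, points with SE) in ND-fed and CDAHFD-fed WT mice for the 8 Cyp2d genes (top) and 11 male-biased liver genes (below), filled where called. Cyp2d9 moves from 5.79 on the ND to 3.03 on the CDAHFD, and each of the 11 male-biased genes has a smaller value on the CDAHFD. The interaction of diet and sex was called in WT mice for 4 of those 11, a list chosen with earlier results of these data known.

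The female-biased list, with Cyp2a4 and Sult2a1 among its 14 genes, was next. This list too was chosen with earlier results of these data known, so its counts are a description and not given as support. In WT females 14 of 14 were called lower on the CDAHFD, with a median of -2.41, and in Cyp2b-null females 11 of 14, where Cyp2b9 and Cyp2b13 are themselves deleted. Among all genes 10.2% and 13.9% were called lower. In WT males 5 of the 14 were tested, 3 were called higher and 1 lower, with Cyp2b9 at 5.34 and Cyp2a4 at 2.36 on the log2 scale among those higher. Cyp2b9 held 26 counts in ND-fed and 1027 in CDAHFD-fed WT males, and passed the filter on low counts only through the CDAHFD-fed WT libraries. Its call is therefore not given as support, and the genes too low to be tested do not enter the count. In Cyp2b-null males 1 of the 5 was called higher and 1 lower, with a median of -1.02. The interaction of diet and sex was called for 5 of 14 genes in WT and 2 of 14 in Cyp2b-null mice, against 0.970% and 3.40% of all genes.

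Among regulators, the list of liver transcription factors and growth hormone signalling genes had 24 genes tested in females and 23 in males. In WT females 6 fell and 0 rose, with a median of -0.32, where 10.2% of all genes were called lower and 13.9% higher. In WT males 9 fell and 1 rose, with a median of -0.33, where 33.0% of all genes were called, 15.0% being lower. In Cyp2b-null mice 9 fell and 0 rose in females, and 8 fell and 2 rose in males. The shares of all genes called lower there were 13.9% and 17.1%. Ghr, the growth hormone receptor, fell by 1.20 in WT females and 1.03 in WT males on the log2 scale, and Hnf4a, a nuclear receptor that binds many liver P450 promoters, fell by 0.58 and 0.74. Igf1 and Igfals, products of growth hormone action, fell by 0.92 and 0.93 in WT males. Stat5b was at -0.46 and -0.32 and was not called in WT mice of either sex.

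Among 6 partners of P450 enzymes, 5 were called lower in WT females, 4 in Cyp2b-null females, 4 in WT males and 5 in Cyp2b-null males, where 10.2%, 13.9%, 15.0% and 17.1% of all genes were called lower, with medians of -0.58, -0.42, -0.64 and -0.73. Por, the reductase that supplies electrons to these enzymes, fell by 0.73 on the log2 scale in WT females and was at 0.02 in WT males. Cyb5b and Pgrmc1 fell in all 4 comparisons.

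Markers of cell types moved with the diet too. In bulk tissue, fewer hepatocytes and less Cyp2d RNA in each hepatocyte cannot be told apart. In the same order as below, 10.2%, 13.9%, 15.0% and 17.1% of all genes were called lower. The hepatocyte markers were called lower for 7 of 9 in WT females (median -1.01), 7 of 9 in Cyp2b-null females (median -0.72), 8 of 9 in WT males (median -0.71) and 6 of 9 in Cyp2b-null males (median -0.63). Their summed level ran from 137100 to 199200 CPM in ND-fed and 79220 to 107200 CPM in CDAHFD-fed WT females, and from 131200 to 146300 and 65990 to 113900 CPM in WT males. Their part in the Cyp2d differences was not tested.

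Macrophage markers were called higher for 6 of 8 in WT females and 7 of 8 in WT males, and their sum went from 425.7-698.1 to 1161-1519 CPM and from 162.9-332.7 to 918-1987 CPM, with Trem2 at 0 in every library. Stellate cell markers were called higher for 6 of 9 in either sex of WT, their sum going from 254.8-366 to 602.9-847.1 CPM and from 155.4-215.1 to 531.5-795.4 CPM. Neutrophil markers rose for 2 of 2 in all 4 comparisons.

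Cholangiocyte markers rose for 1 of 4 in WT mice of either sex. Endothelial markers fell for 2 of 5 in WT females, and rose for 1 and fell for 1 of 5 in WT males. In Cyp2b-null males they rose for 3 and fell for 0 of 5. The shares of all genes called higher are those just given, and 10.2%, 15.0% and 17.1% were called lower in these 3 groups. Of the 6 lymphocyte markers 1 was tested in females and 0 in males, with none called. Of the enterocyte and kidney markers Fabp2 alone was tested, and it rose by 1.37 in WT females. Between the sexes on the ND, macrophage markers were lower in WT males for 7 of 8, where 9.45% of all genes were called lower. The part of each of these lists in the Cyp2d differences was not tested.

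As a description, the genes whose log2 CPM was most like that of each Cyp2d gene over the 32 libraries were named by Pearson's r, points that share libraries, diet and sex. For Cyp2d9 they were Mup21 (r = 0.971), Mup14 (0.964) and Tmem19 (0.961), of which the first pair are major urinary protein genes of a family whose near-identical copies make their counts uncertain. Cyp2d10 was most like Proc (0.956), the gene of protein C, then 1300017J02Rik (0.952) and Klkb1 (0.939), and Cyp2d11 was most like Ces1e (0.878). Cyp2d22 was most like Afmid (0.957), Serpina1d (0.953) and Upb1 (0.95), and Cyp2d13 like BC024386 (0.931). The closest genes to Cyp2d40, Cyp2d26 and Cyp2d12 were Ndufb11 (0.881), Mpc2 (0.787) and S100a10 (0.781). Within the family, Cyp2d10 and Cyp2d11 had the highest r (0.889), Cyp2d10 and Cyp2d22 reached 0.758, and Cyp2d9 reached 0.657 with Cyp2d10 and -0.05 with Cyp2d26.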

How the data were processed

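Livers were taken from WT and Cyp2b-null mice of both sexes fed a ND or a CDAHFD, and RNA was extracted with TRIzol, made into libraries with a NEB Next Ultra kit and sequenced in pairs of 150 bases. The authors deposited raw counts per gene, 1 table for females and 1 for males, made per the labels and the study's methods with FastQC, Trimmomatic, alignment by GSNAP to GRCm38.p6 and Subread counting. Versions, strand and the handling of multi-mapped reads are not given in the sources used here. Levels are CPM with TMM scaling over the 32 libraries.

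Tests used edgeR 4.0.16 in R 4.3.3: glmQLFit and glmQLFTest on 4 groups of a table, filterByExpr with a smallest count of 10 and a smallest total of 15, and Benjamini-Hochberg adjustment over all genes. Sex differences and interactions of diet and sex came from 1 fit of both tables with 8 groups. DESeq2 1.42.0 and the other alternatives are in the closing section. The fit was tested on simulated data with known changes: it recovered 92.9% of genes changed by 2 on the log2 scale in the simulated diet effect in WT females and 96.9% in WT males. A small part of the genes was changed, as many up as down, each from its mean over all groups. The simulation therefore did not test the scaling where many genes respond, or a gene nearly absent from a group. No libraries of a group held identical counts.

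Samples with the same replicate number did not deviate together (24 pairs in females, median r = -0.01, 2 over 0.1, and 24 in males, median r = 0.02, 3 over 0.1), so the number was not used as a block. The genes named in the text are the 8 Cyp2d genes in every comparison, other Cyp2d rows, members of the lists where called or extreme, and for each Cyp2d gene the 3 genes of highest Pearson's r. The 8 genes and the lists were chosen with earlier results of these data known. Promoters and positions are from RefSeq and transcripts from GENCODE, both on GRCm38.p6.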

Additional observations from a re-analysis of the deposited data

Results flagged for a closer look

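Of 64 combinations of gene and group, 4 had 1 library whose gap to the nearest other library was over 0.829 of the group's range, and chance gives about 1 in 20. Cyp2d9 in CDAHFD-fed WT males was at 554.9 CPM in replicate 1 against 241.6 to 262.7 CPM in the others. Cyp2d12 in CDAHFD-fed WT females was at 3.588 CPM in replicate 3 against 1.751 to 2.031 CPM. Cyp2d26 in CDAHFD-fed Cyp2b-null females was at 1167 CPM in replicate 3 against 767.7 to 807.6 CPM. Cyp2d26 in CDAHFD-fed WT males was at 728.8 CPM in replicate 3 against 845.1 to 861.3 CPM.

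By the interaction term, the effect of the CDAHFD on Cyp2d9 differed between the sexes. On the log2 scale, males minus females, the term was -2.753 in WT and -2.316 in Cyp2b-null mice. It was also called for Cyp2d12 in Cyp2b-null mice (-3.866), but that gene was nearly absent in ND-fed females. The Cyp2d12 call was lost when certain single libraries were left out, and it is not given as support.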

How the results depend on the processing

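The falls of Cyp2d9, Cyp2d10, Cyp2d11 and Cyp2d22 in males of both genotypes, the higher Cyp2d9 in males on either diet and its interactions of diet and sex were called under each of the 8 alternatives with calls for single genes and with each library left out. The study's 2-step rule was followed by counts of Cyp2d calls only. Scaling by library totals alone left 2 Cyp2d genes called for diet in WT females and 1 in Cyp2b-null females. With no filter on low counts Cyp2d40 was gained (adjusted p = 0.0114) and Cyp2d26 lost (0.0698) for diet in WT females, and there were 4 in Cyp2b-null females, 1 for genotype in ND-fed females (Cyp2d9) and 2 for diet and sex in WT mice. Without the libraries absent from the study's heat maps there were 5 in Cyp2b-null females and 1 for diet and sex in Cyp2b-null mice. The study's 2-step rule gave 3 for diet in WT females, 1 for genotype in ND-fed males and 1 for sex on the CDAHFD, where a fit of only the groups compared also gave 1, and DESeq2 gave 1 for diet and sex in Cyp2b-null mice, where its adjusted p for Cyp2d12 was missing. The causes were not tested.

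Leaving out 1 library at a time gave 3 to 5 calls for diet in WT females, 2 to 5 in Cyp2b-null females, 1 to 2 for sex on the CDAHFD and 1 to 2 for diet and sex in either genotype.

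Values near 0 that had not been called changed sign. Under library totals alone these were Cyp2d9 (0.0549) and Cyp2d26 (0.0662) for diet in Cyp2b-null females, Cyp2d26 for diet in WT (0.2386) and Cyp2b-null males (0.1308), Cyp2d22 for sex on the CDAHFD (-0.0185) and Cyp2d26 for diet and sex in Cyp2b-null mice (0.0648, and 0.1716 without the libraries absent from the heat maps). With a library left out, the ranges were -0.0126 to 0.641 for Cyp2d9 and diet in WT females, -0.473 to 0.0268 in Cyp2b-null females, -0.89 to 0.063 for Cyp2d12 and diet in WT males and -0.126 to 0.338 in Cyp2b-null males. For sex on the ND they were -0.122 to 0.0523 for Cyp2d22 and -0.393 to 0.00753 for Cyp2d40, and on the CDAHFD -0.0158 to 0.27 for Cyp2d11 and -0.109 to 0.189 for Cyp2d22. For diet and sex they were -0.0433 to 0.238 for Cyp2d22 and -0.444 to 0.0218 for Cyp2d40 in WT mice and -0.158 to 0.129 for Cyp2d26 in Cyp2b-null mice.

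With the replicate number as a block, 4 Cyp2d genes in place of 5 were called for diet in WT females (Cyp2d26, adjusted p = 0.0572), and no other count of Cyp2d calls changed. Depth limits Cyp2d12 most, at 0 to 1.01 CPM in ND-fed females, and in the simulated diet effect in WT females 56.7% of genes changed by 1 on the log2 scale were recovered.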
